A study of Mus musculus with 40 samples.

Results

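Genes that answer interferon and genes that present antigen were followed across the renal cortex of diabetic and non-diabetic mice. The set comprised 39 genes of the 55401 in the count table, found by symbol: 3 Ly6 surface proteins, 18 interferon-stimulated effectors, 2 RNA sensors, 4 transcription factors, 7 genes of MHC class I presentation and 5 of MHC class II presentation. The genes were chosen by name with results of these data already known, in particular the low level of Ly6e in Akita against wild type (WT) mice on the ethanol vehicle. That comparison is therefore given as a description, and the genotype difference was tested in the 30 libraries of the other treatments. All 39 genes passed the filter of a mean of at least 10 counts in each of the 14 comparisons.

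The Akita mice were heterozygous for the Ins2-Akita allele of the insulin gene Ins2 and were labelled diabetic, and their WT littermates shared the C57BL/6J strain. All mice were male. Each group held 5 mice with 1 library each. In one arm mice of both genotypes were gavaged daily from 6 to 22 weeks of age with MitoGamide at 10 mg/kg, a compound that carries a dicarbonyl scavenger into mitochondria, or with its vehicle of 10% ethanol in water. In the other arm they received by gavage, over the same ages, MitoQ, a mitochondria-targeted antioxidant, or water, its vehicle. The treatment protocol in the labels describes only the MitoGamide arm, so the gavage of the MitoQ arm is taken from the design of the series. The dose of MitoQ is not given in the labels. Each library held RNA of the whole renal cortex piece of 1 mouse, and in such bulk RNA fewer cells of a type and less RNA per cell cannot be told apart.

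Type I interferons bind a receptor that activates a complex holding STAT2 and IRF9, which binds interferon-stimulated response elements in the promoters of antiviral genes. Interferon gamma acts in part through IRF1, and it induces the guanylate-binding proteins, MHC class I and, by way of the class II transactivator Ciita, MHC class II. Class I molecules show peptides from inside a cell to CD8 T cells and are made by nearly all cells, while class II molecules show engulfed peptides to CD4 T cells and are made mainly by dendritic cells, macrophages and B cells.

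Libraries held from 9106654 to 24321424 counts. Of the 40 libraries, 5 stood apart, with a median Spearman correlation with the other libraries below 0.95, and they were replicates 2 and 5 of Akita on water, replicate 3 of WT on water, replicate 3 of WT on MitoQ and replicate 5 of Akita on MitoGamide. The summed level of ribosomal protein genes ran from 1382 to 8735 CPM (counts scaled to the depth of a library) on water and MitoQ and from 6686 to 8909 CPM on ethanol and MitoGamide. In the 30 libraries on water, MitoQ and MitoGamide, the sum of 7 proximal tubule markers ran from 8077 to 17790 CPM for Akita. For WT it ran from 10670 to 23650 CPM, whereas 7 T and NK cell markers summed to at most 7.70 CPM. Of the 7 tubule markers, Kap differed most by mean over all 40 libraries, at 8164 (WT) against 2598 CPM (Akita). Means of Lrp2, Slc34a1 and Slc22a6 were also lower with the Akita allele, those of Cubn and Slc5a12 higher. Slc5a2 was nearly equal, at 274.9 (WT) against 271.7 CPM (Akita). Whether the amount of proximal tubule differed was not tested. Levels below are CPM with one scaling over all 40 libraries, and differences are log2 fold changes from edgeR's quasi-likelihood test with Benjamini-Hochberg adjustment over all genes tested.

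Promoters of 29 of the 39 genes were held in the RefSeq table (GRCm38.p6, 250 bases before to 50 after the transcription start), and those of H2-Ab1, Cd74, Ifi27, Ly6a, Tap2, Usp18, Rtp4, Ciita, Parp14 and Ly6e were not used here. The core of the interferon-stimulated response element, searched on both strands as GAAANNGAAA, occurred in 14 of the 29 genes (48.3%, a gene counted when any of its promoters held it) and in 3.44% of all 32851 promoters. By group it was found in 10 of 14 effectors, in both RNA sensors, in Stat2 of the 4 transcription factors, in B2m of 6 class I genes and in neither of the 2 class II genes. The Y box CTGATTGG of class II promoters, bound by NF-Y, occurred on either strand in H2-Aa, H2-Eb1, H2-K1, H2-D1 and Tap1, against 4.10% of all promoters. Stretches of 70 bases upstream of the start are shown for 3 effectors and B2m, with the response element core in capitals, and for 2 class II genes, with the Y box in capitals, because they show where the letters lie in genes of the effector, class I and class II groups described below.
Isg15 (chr4:156200845-156200914, minus strand): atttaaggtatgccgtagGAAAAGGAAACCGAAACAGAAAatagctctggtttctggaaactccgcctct
Ifit1 (chr19:34640774-34640843, plus strand): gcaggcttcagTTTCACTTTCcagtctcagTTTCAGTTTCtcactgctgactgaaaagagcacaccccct
Gbp7 (chr3:142530253-142530322, plus strand): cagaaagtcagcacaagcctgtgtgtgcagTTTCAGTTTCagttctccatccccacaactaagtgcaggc
B2m (chr2:122147518-122147587, plus strand): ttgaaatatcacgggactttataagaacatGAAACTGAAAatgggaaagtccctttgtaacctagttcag
H2-Aa (chr17:34287835-34287904, minus strand): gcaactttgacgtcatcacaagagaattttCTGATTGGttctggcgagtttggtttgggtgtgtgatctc
H2-Eb1 (chr17:34305775-34305844, plus strand): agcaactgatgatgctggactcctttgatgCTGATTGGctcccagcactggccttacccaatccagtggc
The capitals of Isg15 hold 3 overlapping copies of the core. A match describes these letters only and is not evidence of binding.

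Over the 30 libraries on water, MitoQ and MitoGamide, Akita mice had less RNA of Ly6e and Ly6a and of 4 of the 5 class II genes than WT mice, and more of Ly6c1 and of the RNA sensor Ddx58, whereas none of the 18 effectors passed the test as fitted. In that fit of genotype and treatment over 30 libraries, 8 of the 39 genes were called at an adjusted p under 0.05, against a background of 13.5% of 17778 genes tested. Of these, 6 were lower in Akita mice, against 5.71% of all genes, and 2 were higher, against 7.77%. The median log2 fold change was -0.04 over the 39 genes and 0.00 over all genes tested. The genotype difference did not pass a test of change among water, MitoQ and MitoGamide for any of the 39 genes by edgeR, where the background was 0% of 17778 genes, 1 of the 39 (Tapbp) had an unadjusted p under 0.05 and DESeq2 called none.

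**Figure D1:**
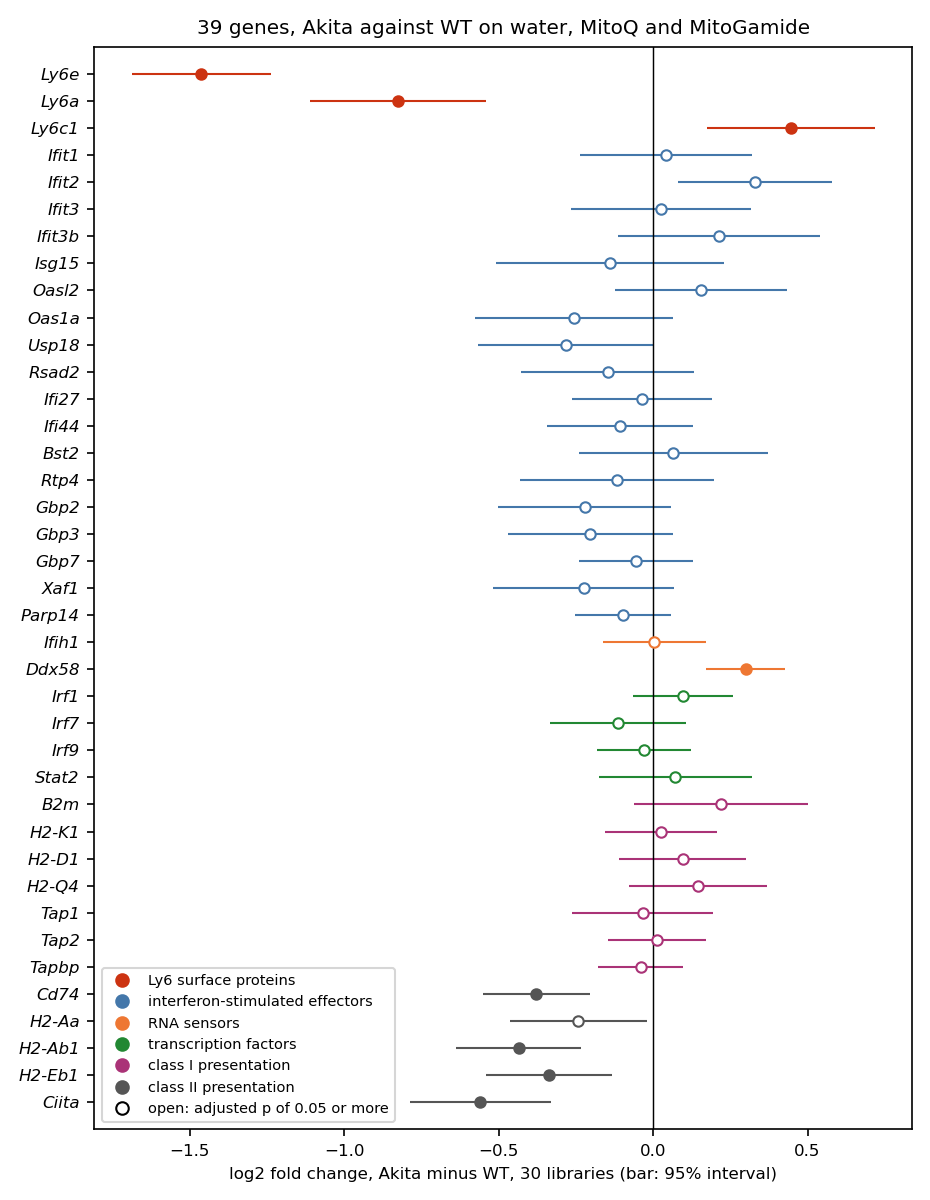
Each point is the log2 fold change (x axis) of 1 of the 39 genes (y axis) in Akita against WT mice over the 30 libraries on water, MitoQ and MitoGamide, the bar is its 95% interval, and filled points had an adjusted p under 0.05. Ly6e lies farthest from 0 at -1.46, all 5 class II genes lie below 0, and the effectors lie between -0.28 and 0.33.

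Ly6e, Ly6a and Ly6c1 encode small surface proteins anchored by a glycolipid. Ly6e, which type I interferon induces and which alters the entry of several viruses, lies at chr15:74955051-74959905, plus strand (GRCm38, GENCODE M21). Ly6a, known as the stem cell antigen Sca-1 and also found on endothelium, lies at chr15:74994877-74998031, minus strand, and Ly6c1, found on endothelial cells and monocytes, at chr15:75044018-75048830, minus strand. The 3 genes fall within 93780 bases.

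The level of Ly6e in the 5 mice on water was 208, 108, 107, 142 and 214 CPM in WT and 65.7, 49.7, 46.6, 62.8 and 43.9 CPM in Akita mice. On MitoQ it was 130.3, 149, 99.3, 259 and 142 CPM in WT and 56.8, 59.6, 45.1, 49.7 and 52.7 CPM in Akita mice. On MitoGamide it was 181, 174, 205, 166 and 201 CPM in WT and 62.3, 88.2, 65.4, 68.7 and 84.2 CPM in Akita mice. In each of these treatments every Akita mouse lay below every WT mouse. Over the 30 libraries the log2 fold change was -1.46 (SE 0.11, adjusted p = 1.28e-10), a level 2.76-fold lower in Akita mice with a 95% interval of the log2 value from -1.69 to -1.24. Without the 5 libraries that stood apart it was -1.56 (adjusted p = 3.22e-10).

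Within single treatments, Ly6e fell by 1.53 on the log2 scale on water (SE 0.24, adjusted p = 0.0150), by 1.58 on MitoQ (SE 0.22, adjusted p = 0.00755) and by 1.32 on MitoGamide (SE 0.11, adjusted p = 5.53e-05). It was the only one of the 39 genes called on water, where 0.552% of 18304 genes were called and 0.366% were lower, and on MitoQ, where 0.557% of 18143 genes were called and 0.292% were lower. On MitoGamide, Ly6e and Ly6a were called, against 14.3% of 16674 genes called and 6.6% lower. When each library was left out there, 7.44% to 16.9% of all genes were called, and both genes were called in 10 of 10 fits. The call on water was lost without the libraries that stood apart, at -1.52 (adjusted p = 0.196), and without replicate 5 of Akita on water alone, at -1.46 (adjusted p = 0.0525).

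Ordered by mean, Ly6e stood at 206 ± 19.6 CPM (SD, n = 5) in WT on ethanol, 185 ± 16.9 in WT on MitoGamide, 156 ± 60.5 in WT on MitoQ and 156 ± 52.3 in WT on water. The Akita groups followed at 73.8 ± 11.7 on MitoGamide, 67.1 ± 5.32 on ethanol, 53.7 ± 9.84 on water and 52.8 ± 5.70 CPM on MitoQ. Neighbouring groups of the same genotype overlapped in this order, and the gap between the lowest WT group and the highest Akita group was the only one at which values did not overlap, since the lowest WT mouse had 99.3 CPM and the highest Akita mouse 88.2 CPM.

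**Figure D2:**
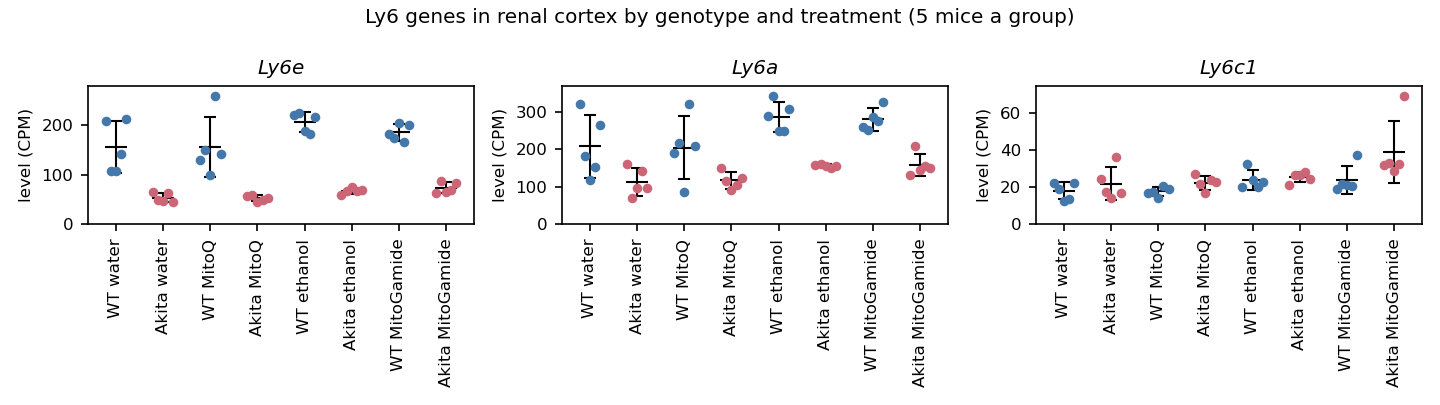
Points are the level in CPM (y axis) of Ly6e, Ly6a and Ly6c1 in each of the 5 mice of the 8 groups (x axis), with WT in blue and Akita in red, and the black bars are the mean and SD. Ly6e is below the WT range in all 4 Akita groups, Ly6a overlaps on water and MitoQ, and Ly6c1 has 1 high value of 69.2 CPM in Akita on MitoGamide.

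Ly6a on MitoGamide was 258, 249.6, 285, 276 and 326 CPM in WT and 130.4, 208, 143, 154 and 149.8 CPM in Akita mice, with no overlap, and it was lower in Akita mice at -0.82 (SE 0.12, adjusted p = 0.00186). On water it was 320.2, 183, 116, 151 and 264 CPM in WT and 159, 69.9, 95.5, 141 and 96.3 CPM in Akita mice. The groups overlapped there, and on MitoQ too, where levels ran from 90.6 to 149 CPM in the Akita mice and from 84.3 to 319.8 CPM in the WT mice. Neither difference passed the test, at -0.87 (SE 0.30, adjusted p = 0.388) on water and -0.82 (SE 0.27, adjusted p = 0.298) on MitoQ. On MitoQ Ly6a was called without replicate 3 of WT, a library that stood apart, at -1.01 (adjusted p = 0.0202). With the ribosomal protein level as a covariate it was called on water at -0.82 (adjusted p = 0.00105) and on MitoQ at -1.02 (adjusted p = 3.48e-04). With all 40 libraries in one fit it was called on water at -0.87 (adjusted p = 0.0263). Over the 30 libraries Ly6a fell in Akita mice at -0.83 (SE 0.15, adjusted p = 1.50e-04). Without the libraries that stood apart the value was -0.90 (adjusted p = 4.14e-06).

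Ly6c1 moved the other way. On MitoGamide its level was 19.0, 21.6, 21.3, 20.7 and 37.3 CPM in WT and 31.8, 32.8, 28.8, 32.5 and 69.2 CPM in Akita mice. On water it was 22.5, 19.3, 12.6, 13.8 and 22.2 CPM in WT and 24.2, 17.5, 14.2, 36.3 and 16.6 CPM in Akita mice, and the groups overlapped in both treatments. On MitoGamide alone edgeR did not call it, at 0.70 (SE 0.26, adjusted p = 0.0851), but it was called by DESeq2 at 0.70 (adjusted p = 0.0405), with all 40 libraries in one fit at 0.68 (adjusted p = 0.0451) and without replicate 5 of WT at 0.92 (adjusted p = 0.0262). Over the 30 libraries it was higher in Akita mice at 0.45 (SE 0.14, adjusted p = 0.0281). Without the libraries that stood apart the call was lost at 0.31 (adjusted p = 0.0844), and without replicate 5 of Akita on MitoGamide alone at 0.33 (adjusted p = 0.0826). It was also lost without replicate 4 of Akita on water, replicate 3 or 4 of WT on water or any one of replicates 1 to 4 of WT on MitoGamide. Reads of Ly6c1 can be shared with its near-identical neighbour Ly6c2 in the authors' counting.

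Endothelial markers were measured beside the Ly6 genes. Of 10 such markers, all tested, 3 were higher and none lower in Akita mice over the 30 libraries, beside 7.77% and 5.71% of all genes, namely Pecam1 at 0.34, Cdh5 at 0.34 and Plvap at 0.45, named after their values were seen. By mean over all 40 libraries, Kdr, Emcn and Ehd3 were lower in Akita than in WT mice, and Tek, Flt1, Egfl7 and Tie1 higher. The summed level of the 10 markers ran from 365 to 884 CPM in Akita and from 373 to 789 CPM in WT mice, with medians of 479 and 458 CPM. Replicate 5 of Akita on MitoGamide had the highest sum at 884 CPM and the highest Ly6c1. The part of the endothelial markers in the Ly6 differences was not tested.

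Of 20 other Ly6 family genes, 7 were tested in that fit and 1 was called, a share near the background of 13.5% of all genes. It was Gpihbp1, which anchors lipoprotein lipase on capillaries. It was higher in Akita mice at 0.73 (SE 0.14, adjusted p = 4.41e-04).

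Of the 5 class II genes, 4 were lower in Akita mice. Cd74, the invariant chain that fills the class II groove until it is loaded, fell at -0.38 (SE 0.09, adjusted p = 0.00324), H2-Ab1, the beta chain of I-A, at -0.43 (SE 0.10, adjusted p = 0.00357), and H2-Eb1, the beta chain of the I-E molecule that C57BL/6 mice do not assemble, at -0.34 (SE 0.10, adjusted p = 0.0267). Ciita, the master regulator of class II transcription, fell at -0.56 (SE 0.12, adjusted p = 0.00105). H2-Aa, the alpha chain of I-A, ran from 15.8 to 61.2 CPM over the 40 libraries and did not pass, with -0.24 (SE 0.11, adjusted p = 0.175). With the ribosomal protein level as a covariate it was called too, at -0.30 (adjusted p = 0.00230), and 10 of the 39 genes were called in place of 8, while the share of all genes called was 22.6% in place of 13.5%.

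Cd74 on water was 96.6, 87.2, 69.9, 106 and 93.3 CPM in WT and 76.2, 64.8, 56.0, 55.9 and 52.6 CPM in Akita mice. On MitoQ it was 88.4, 85.2, 90.6, 102 and 83.9 CPM in WT and 78.8, 63.4, 52.9, 52.8 and 76.5 CPM in Akita mice. On MitoGamide it was 85.4, 87.5, 111, 97.3 and 158 CPM in WT and 104, 99.2, 95.5, 85.0 and 109 CPM in Akita mice. The genotypes were separate on MitoQ, touched on water through replicate 3 of WT and replicate 1 of Akita, and were mixed on MitoGamide.

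H2-Ab1, at chr17:34257689-34269419, plus strand, was 38.9, 27.1, 24.1, 36.6 and 33.9 CPM in WT and 24.96, 20.7, 18.1, 19.3 and 15.8 CPM in Akita mice on water. On MitoQ it was 27.0, 26.4, 30.8, 31.5 and 27.3 CPM in WT and 27.3, 18.6, 15.2, 15.3 and 24.2 CPM in Akita mice. In both treatments 1 Akita mouse reached the lower end of the WT range. On MitoGamide, where levels ran from 27.9 to 38.4 CPM in the Akita mice and from 27.8 to 51.7 CPM in the WT mice, the log2 fold change was -0.14 (SE 0.16, adjusted p = 0.594).

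H2-Eb1, at chr17:34305867-34316674, plus strand, was 33.9, 36.2, 24.1, 33.6 and 35.2 CPM in WT and 27.8, 20.6, 20.3, 23.8 and 21.5 CPM in Akita mice on water. On MitoQ it was 31.6, 33.5, 31.0, 35.1 and 28.8 CPM in WT and 30.8, 20.2, 19.9, 17.5 and 26.5 CPM in Akita mice. On water the WT values lay above the Akita values except for replicate 3 of WT, a library that stood apart. On MitoGamide the difference was -0.05 (SE 0.20, adjusted p = 0.882). The call over 30 libraries was lost without replicate 5 of WT on MitoGamide, at -0.28 (adjusted p = 0.0621). That mouse had the highest summed level of macrophage and dendritic cell markers of all 40.

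Ciita, at chr16:10480059-10528418, plus strand, was 7.79, 8.22, 10.7, 7.75 and 8.98 CPM in WT and 6.73, 5.69, 6.64, 6.89 and 2.62 CPM in Akita mice on MitoGamide, with no overlap. On water it was 9.56, 10.4, 10.2, 14.5 and 7.69 CPM in WT and 5.78, 8.30, 8.27, 5.21 and 7.39 CPM in Akita mice, and on MitoQ it ran from 6.00 to 7.87 CPM in the Akita mice and from 7.47 to 12.9 CPM in the WT mice. The low value of 2.62 CPM on MitoGamide was that of replicate 5 of Akita, and without this mouse Ciita was called there at -0.42 (adjusted p = 0.0378). The log2 fold change was -0.59 on water, -0.54 on MitoQ and -0.59 on MitoGamide, with adjusted p of 0.381, 0.261 and 0.0852.

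**Figure D3:**
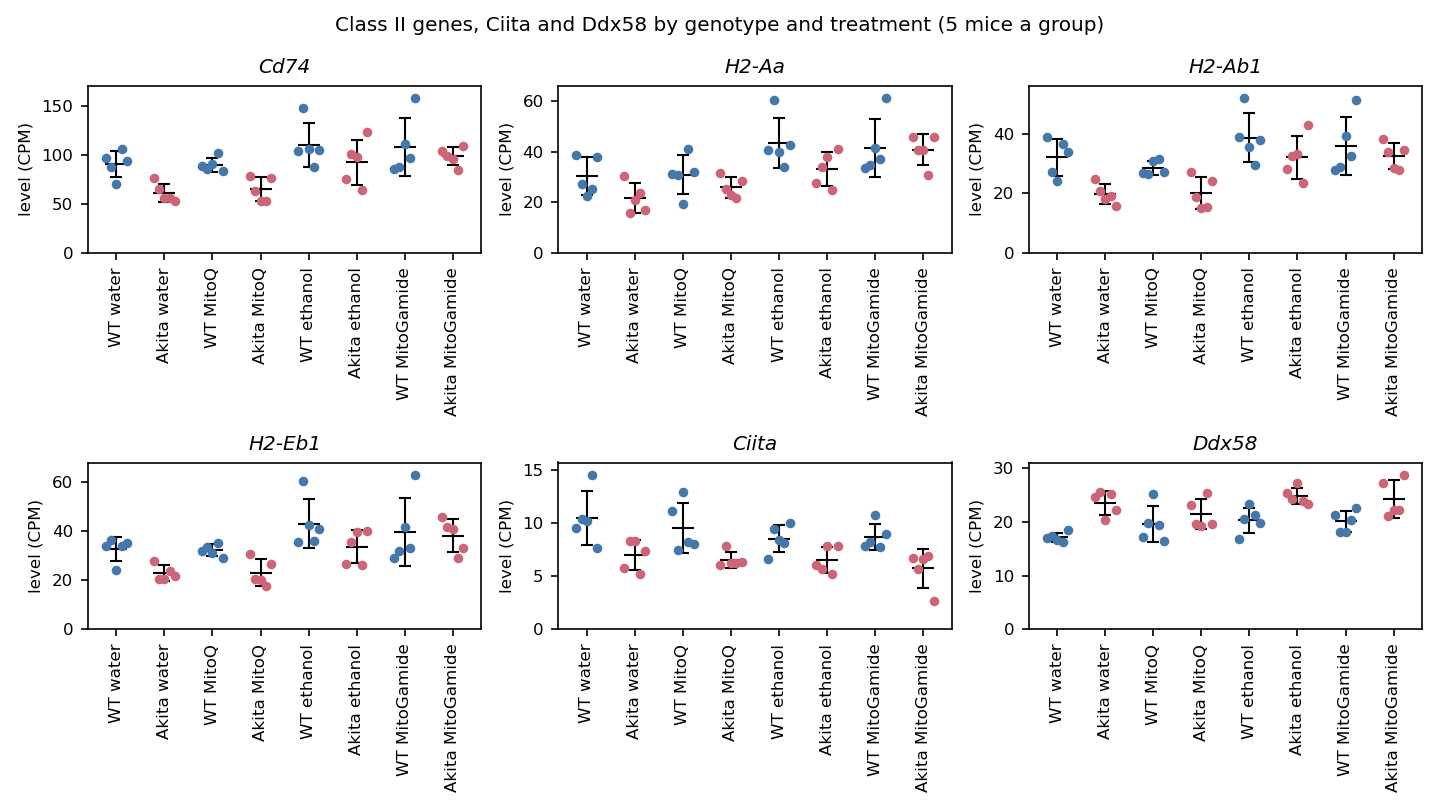
Points are the level in CPM (y axis) of Cd74, H2-Aa, H2-Ab1, H2-Eb1, Ciita and Ddx58 in each of the 5 mice of the 8 groups (x axis), with WT in blue and Akita in red, and black bars are the mean and SD. The Akita groups on water and MitoQ lie lowest for Cd74, H2-Ab1 and H2-Eb1, and Ddx58 on water is higher in every Akita mouse than in any WT mouse.

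All 5 class II genes had a log2 fold change below 0 in each of the 3 treatments, which share no library, as had 22.9% of 16425 genes. The median of the 5 was -0.56 on water, -0.49 on MitoQ and -0.12 on MitoGamide. On MitoGamide the values ran from -0.59, that of Ciita, to -0.02. In single treatments none of the 5 was called by edgeR as fitted. An unadjusted p under 0.05 was found for 5 on water, 4 on MitoQ and 1 on MitoGamide, beside 7.56%, 9.06% and 31.1% of all genes. With the ribosomal protein covariate edgeR called all 5 on water and Cd74, H2-Aa and H2-Eb1 on MitoQ, beside 3.75% and 3.58% of all genes, and with all 40 libraries in one fit it called Cd74 and H2-Ab1 on water and Ciita on MitoGamide. DESeq2, which called 1.94% of all genes on water and 18.5% on MitoGamide, called Cd74 and H2-Ab1 on water and Ciita on MitoGamide. Without the libraries that stood apart, the fit over the remaining libraries gave -0.42 (adjusted p = 0.00307) for Cd74, -0.45 (adjusted p = 0.00662) for H2-Ab1, -0.35 (adjusted p = 0.0436) for H2-Eb1 and -0.53 (adjusted p = 7.72e-04) for Ciita.

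Some markers of the cells that make class II were lower too. Of 16 macrophage and dendritic cell markers, 15 were tested, 10 had a value below 0 and 3 were called, all lower in Akita mice, beside 13.5% of all genes called and 5.71% lower. These were the macrophage growth factor receptor Csf1r at -0.72 (SE 0.10, adjusted p = 9.66e-06), the leukocyte antigen Ptprc at -0.46 (SE 0.08, adjusted p = 1.83e-04) and the dendritic cell integrin Itgax at -0.73 (SE 0.15, adjusted p = 0.00107). By mean over all 40 libraries, Cd68, Itgam, Lyz2 and Zbtb46 were higher in Akita than in WT mice, and the other listed markers lower. The means of C1qb and Lyz2 were 7.76 and 8.28 CPM in Akita and 7.90 and 8.20 CPM in WT mice. The summed level of the 16 markers ran from 68.8 to 107.9 CPM in Akita and from 90.6 to 162.5 CPM in WT mice over the 30 libraries, with medians of 83.3 and 103.2 CPM. No marker of this list was at 0 in more than 1 of the 40 libraries. None of 4 B cell markers had enough counts to be tested, and their summed level ran from 0.498 to 1.12 CPM in Akita and from 0.457 to 3.31 CPM in WT mice, with medians of 0.794 and 1.25 CPM. The part of these cells in the class II difference was not tested.

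Ddx58, which encodes the RNA sensor RIG-I and lies at chr4:40203773-40239828, minus strand, was higher in Akita mice. On water its level was 17.0, 17.4, 16.6, 16.3 and 18.5 CPM in WT and 24.6, 25.7, 20.3, 25.2 and 22.3 CPM in Akita mice, with no overlap. On MitoQ it was 17.3, 19.8, 25.2, 19.5 and 16.4 CPM in WT and 23.2, 19.6, 19.3, 25.4 and 19.6 CPM in Akita mice, and on MitoGamide 21.2, 18.2, 18.2, 20.4 and 22.6 CPM in WT and 27.3, 21.1, 22.2, 22.1 and 28.8 CPM in Akita mice, and the genotypes overlapped in both. Over the 30 libraries the log2 fold change was 0.30 (SE 0.07, adjusted p = 0.00169), and without the libraries that stood apart it was 0.25 (adjusted p = 0.00764). On water alone it was 0.46 (SE 0.12, adjusted p = 0.159) by edgeR, and DESeq2 called it at 0.46 (adjusted p = 0.0152). Ifih1, which encodes the related sensor MDA5, ran from 8.85 to 22.4 CPM over the 40 libraries and gave 0.00 (SE 0.08, adjusted p = 0.987), with a 95% interval of -0.16 to 0.17.

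Of 11 other sensors and adaptors of nucleic acid sensing on a separate list, 1 was higher and none was lower in Akita mice, a count near the background of 7.77% of all genes higher. It was Mavs, the mitochondrial adaptor of RIG-I and MDA5, at 0.26 (SE 0.07, adjusted p = 0.0193), named after its value was seen.

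None of the 4 transcription factors passed the test. Stat2, which type I interferon receptors activate, had the highest mean count among them, ran from 8.83 to 25.6 CPM over the 40 libraries and gave 0.07 (SE 0.13, adjusted p = 0.803). Irf9, the DNA-binding partner of STAT2, gave -0.03 (SE 0.08, adjusted p = 0.882), with a 95% interval of -0.18 to 0.12. Irf1, induced by interferon gamma, gave 0.10 (SE 0.08, adjusted p = 0.540), and Irf7, which amplifies type I interferon, -0.11 (SE 0.11, adjusted p = 0.611).

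The 18 effectors had log2 fold changes from -0.28 to 0.33 over the 30 libraries, with a median of -0.10 and 12 below 0. None was called by edgeR or, in the same design, by DESeq2, and 1 (Ifit2) had an unadjusted p under 0.05, beside 24.8% of all genes. Of the 18, 9 were lower and 3 higher in Akita mice in each of the 3 treatments, beside 22.9% and 23.5% of all genes. Within water, MitoQ or MitoGamide, as fitted, none of the 18 had an unadjusted p under 0.05.

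The IFIT proteins bind viral RNA and block its translation. Ifit2 gave 0.33 (SE 0.13, adjusted p = 0.0877) over the 30 libraries. It was called as higher in Akita mice with the ribosomal protein covariate (0.27, adjusted p = 0.0335) and without replicate 5 of WT on water (0.38, adjusted p = 0.0449), replicate 5 of WT on MitoGamide (0.38, adjusted p = 0.0451) or replicate 4 of WT on MitoQ (0.37, adjusted p = 0.0475). On water, where its difference was largest at 0.51, its level was 6.40, 4.08, 3.60, 5.40 and 8.43 CPM in WT and 9.41, 6.53, 7.06, 10.9 and 5.31 CPM in Akita mice. The groups overlapped. Ifit1 gave 0.04 (SE 0.14, adjusted p = 0.911). Its close relatives Ifit3 and Ifit3b gave 0.03 and 0.21, and reads of those 2 genes can be divided between them.

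Among the other antiviral effectors, Rsad2, which encodes viperin, gave -0.15 (SE 0.14, adjusted p = 0.604), and Parp14, an ADP-ribosyltransferase with the highest mean count of the group, -0.10 (SE 0.08, adjusted p = 0.499). Usp18, which removes ISG15 from proteins and dampens interferon receptor signalling, gave -0.28 (SE 0.14, adjusted p = 0.226), and Isg15 itself -0.14 (SE 0.19, adjusted p = 0.732) at only 6 to 34 counts per library. The 2 genes of the oligoadenylate synthetase family, Oas1a and Oasl2, had -0.26 and 0.15. Values were 0.07 for Bst2, which tethers budding virions, -0.12 for Rtp4, -0.04 for Ifi27, -0.11 for Ifi44 and -0.23 for Xaf1, a regulator of apoptosis. None of these differences had an adjusted p under 0.05.

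The guanylate-binding proteins, interferon gamma-induced GTPases that attack pathogen vacuoles, had values below 0. Gbp2 gave -0.22 (SE 0.14), Gbp3 -0.20 (SE 0.14) and Gbp7 -0.06 (SE 0.09). The 3 adjusted p were 0.367, 0.396 and 0.793.

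The effectors varied between single mice. Replicate 2 of WT on ethanol was the highest library of its group for 15 of the 18 effectors, replicate 5 of WT on MitoGamide for 14, and replicate 3 of Akita on ethanol for 12. The summed effector level was 202.9 CPM in replicate 2 of WT on ethanol, where the group median was 122.8 CPM, and 197.1 CPM in replicate 5 of WT on MitoGamide, where it was 132.9 CPM. In the Akita groups the highest sum was 173.2 CPM, on MitoGamide. The macrophage and dendritic markers summed to 139.8 and 162.5 CPM in those 2 WT mice, the highest values of their groups, and their part in the effector levels was not tested.

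**Figure D4:**
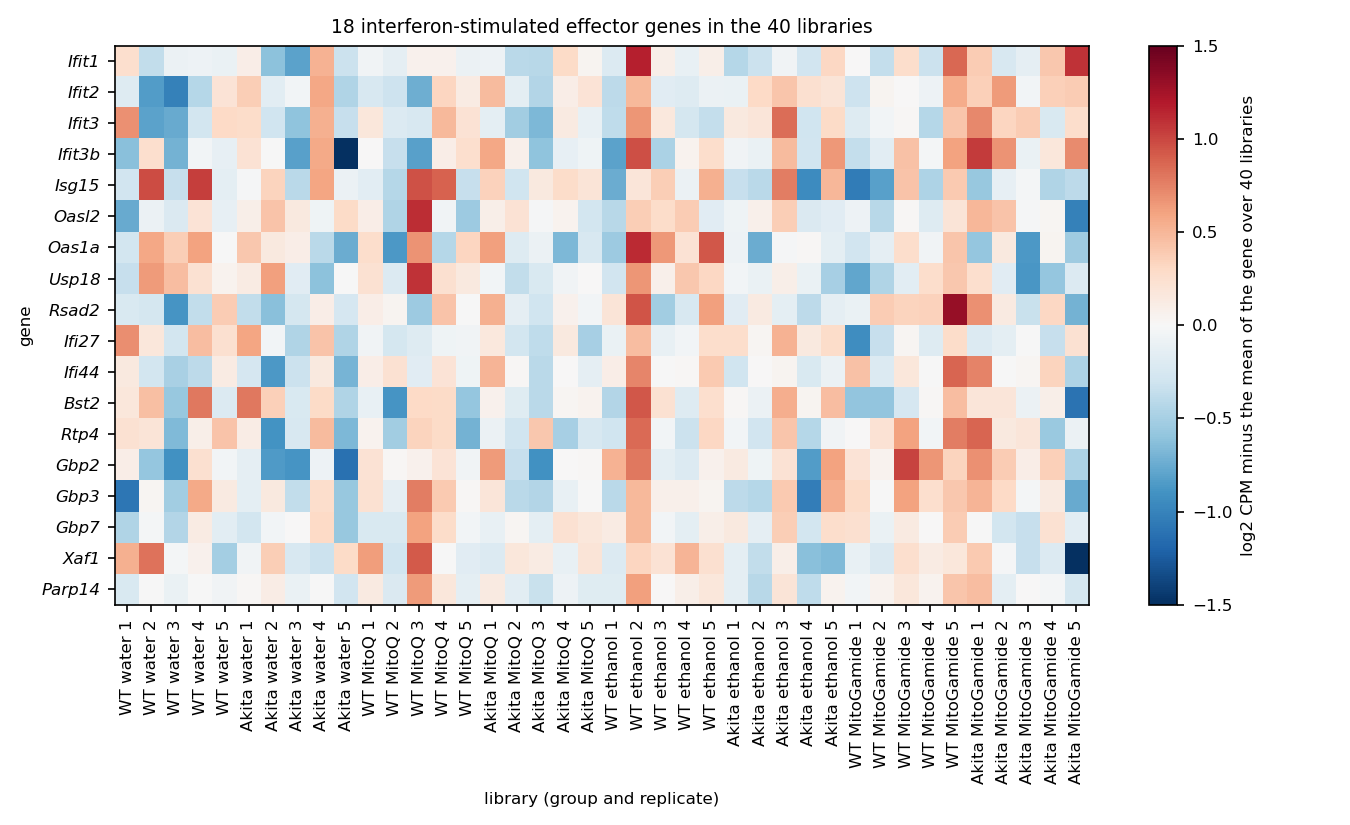
Colour gives the log2 CPM of each of the 18 effectors (y axis) minus the mean of that gene over the 40 libraries (x axis, by group and replicate), with red above and blue below that mean. Replicate 2 of WT on ethanol and replicate 5 of WT on MitoGamide are red for most genes, and the columns of both genotypes hold red and blue cells.

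None of the 7 class I genes passed the test. B2m, the light chain of all class I molecules, gave 0.22 (SE 0.14, adjusted p = 0.376), and the heavy chains H2-K1, H2-D1 and H2-Q4 gave 0.03, 0.10 and 0.15. H2-D1, with the highest mean count of the class, had a 95% interval of -0.11 to 0.30. The peptide transporter subunits Tap1 and Tap2 gave -0.03 and 0.01, and tapasin, encoded by Tapbp, which holds class I at the transporter, -0.04. Adjusted p ran from 0.376 to 0.958. Reads of the heavy chain genes can be divided among close copies of the H2 locus.

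In the rest of the pathway, most interferon genes had few or no counts. Ifna1, Ifna4, Ifnb1, Ifnl2 and Ifnl3 had no count in any of the 40 libraries, which allows up to 3 counts per library, or 0.12 to 0.625 CPM on the scale used here. Ifna2 had none in 39 and Ifng none in 28 libraries. Ifnk, a type I interferon named after its values were seen, was the only one tested, with a mean of 0.84 CPM, no library at 0 and -0.56 (SE 0.30, adjusted p = 0.263). Of 18 receptors and signal transducers, 17 were tested, 2 were lower and 2 higher in Akita mice, beside 5.71% and 7.77% of all genes. The transcription factor Irf5 fell at -0.90 (SE 0.12, adjusted p = 3.19e-06), and Socs3, an inhibitor of cytokine receptors, was higher at 1.11 (SE 0.29, adjusted p = 0.00898). Irf8, a factor of the myeloid lineage named after its value was seen, was higher at 0.28 (SE 0.09, adjusted p = 0.0430).

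Of 72 further interferon-stimulated genes, 68 were tested, 11 were lower and 2 higher in Akita mice, beside 5.71% of all genes lower and 7.77% higher, and the median was -0.09. The chemokine Cxcl9 gave -0.77 (SE 0.20), the DNA-binding PYHIN proteins Ifi209 and Mndal -0.76 (SE 0.20) and -0.50 (SE 0.14), and the guanylate-binding proteins Gbp6 and Gbp10 -0.66 (SE 0.18) and -1.16 (SE 0.31), with adjusted p from 0.00659 to 0.0143. The 2 higher genes, also named after their values were seen, were Lgals3bp at 0.55 and Parp10 at 0.29. Of 32 other antigen presentation genes, 26 were tested and 2 were called, both lower, a count near the background of 5.71% of all genes lower and under the 13.5% called. They were the chaperones of the class I loading complex Calr at -0.44 (SE 0.09, adjusted p = 9.86e-04) and Pdia3 at -0.51 (SE 0.11, adjusted p = 0.00225), which serve all glycoproteins of the endoplasmic reticulum.

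On the ethanol vehicle, the comparison known when the genes were chosen, Ly6e was 219.9, 224, 188, 182 and 217 CPM in WT and 59.5, 67.1, 74.4, 66.4 and 68.4 CPM in Akita mice, a log2 fold change of -1.62. Ly6a was 287, 341, 248, 248 and 308 CPM in WT and 159, 159.8, 154, 151 and 155 CPM in Akita mice, or -0.88. Neither overlapped between genotypes. Ly6e, Ly6a, Ddx58 at 0.29 and Xaf1 at -0.56 were the 4 genes past the threshold there, beside 16.4% of 17747 genes, and nothing is read from that count. Class II values ran from -0.40 to -0.25.

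**Figure D5:**
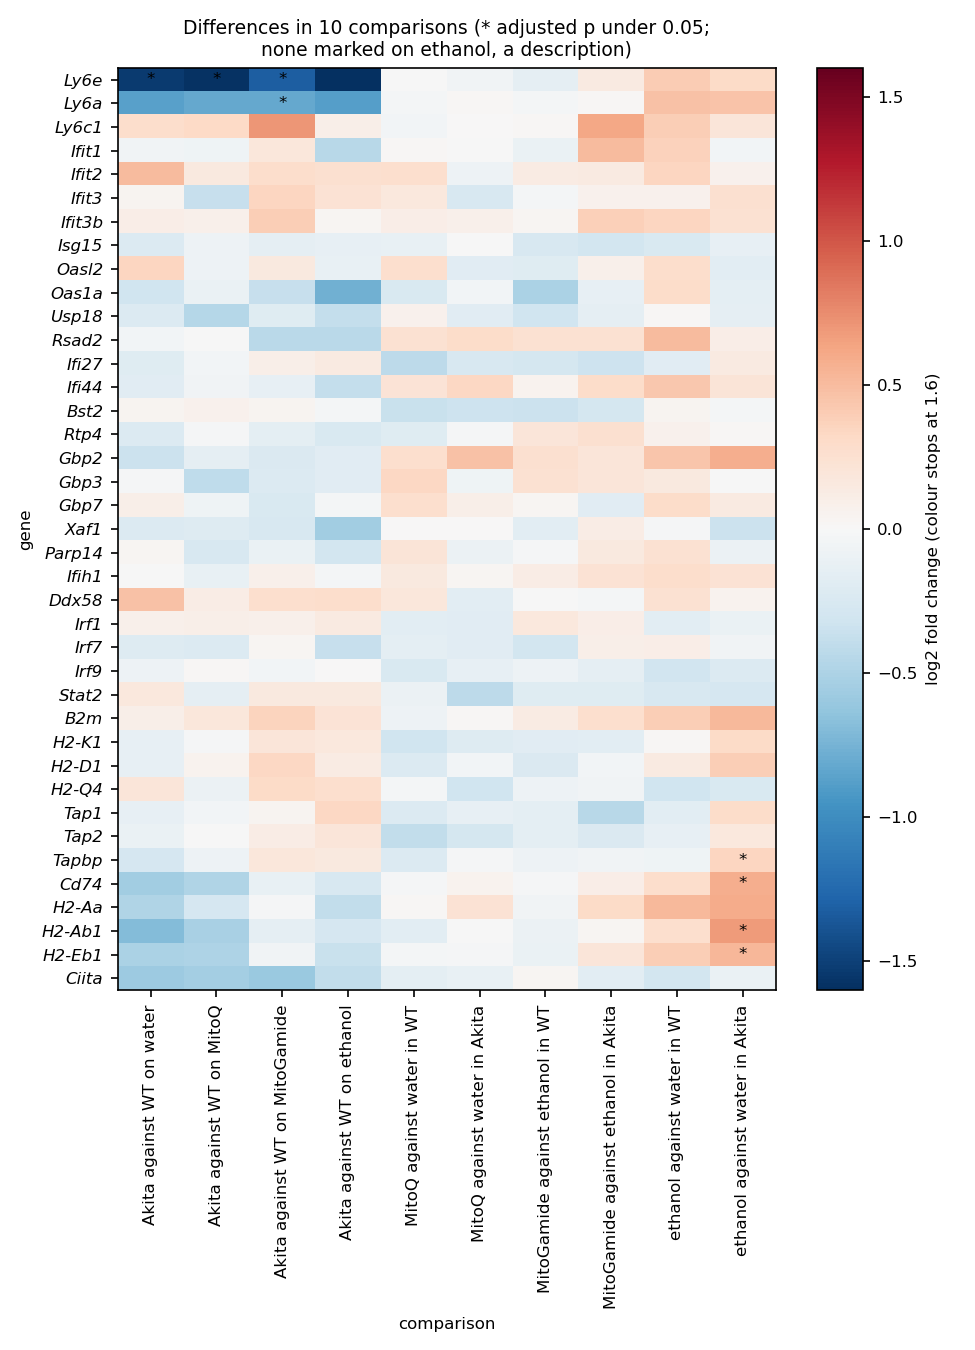
Colour gives the log2 fold change of the 39 genes (y axis) in 10 comparisons of 5 against 5 mice (x axis), red where the first group named was higher, with a star where the adjusted p was under 0.05. Stars fall on Ly6e in 3 Akita against WT comparisons, on Ly6a in 1 and on Tapbp, Cd74, H2-Ab1 and H2-Eb1 for ethanol against water in Akita mice, and none falls where MitoGamide or MitoQ is set against its vehicle. The ethanol genotype comparison, a description, carries no stars.

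The next comparison asked whether MitoGamide moved these genes. In Akita mice none of the 39 was called against the ethanol vehicle, beside 1.26% of 17051 genes. Without any one library of Akita on ethanol that share was 0% to 0.0235%. By edgeR 4 of the 39 had an unadjusted p under 0.05, beside 20.9% of all genes, and DESeq2 called none, beside 6.01% of all genes. They were Ly6c1 at 0.62 (SE 0.21, adjusted p = 0.137), Ifi27 at -0.33, Tap1 at -0.45 and Tap2 at -0.23. Ly6e was 67.1 ± 5.32 CPM on ethanol and 73.8 ± 11.7 CPM on MitoGamide (SD, n = 5), and the 95% interval of its log2 difference ran from -0.06 to 0.35. Without replicate 5 of Akita on MitoGamide, the library that stood apart, H2-K1 was called at -0.28 (adjusted p = 0.0384), where 4.67% of all genes were called. The ethanol libraries of this comparison are those of the Akita against WT comparison on ethanol.

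In WT mice on MitoGamide none of the 39 genes was called by edgeR, where 0% of 17395 genes were, no member had an unadjusted p under 0.05, beside 10.6% of all genes, and DESeq2 called none of the 39. The difference of Ly6e was -0.15 with a 95% interval of -0.31 to 0.01, that of Cd74 -0.02 with -0.35 to 0.30 and that of Ciita 0.04 with -0.21 to 0.29. The MitoGamide effect did not pass a test of difference between genotypes for any of the 39 genes, with a background of 0% of 17256 genes. DESeq2 called none. Ly6e alone had an unadjusted p under 0.05 by edgeR, and nothing is read from it, since the ethanol libraries through which the genes were chosen enter this test as well as both comparisons of MitoGamide with its vehicle.

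For MitoQ against water, none of the 39 genes was called by edgeR in Akita mice (background 0% of 18496 genes) or in WT mice (0% of 17881), and DESeq2 called none of them in either. An unadjusted p under 0.05, found for 1.96% of all genes in Akita and 3.22% in WT mice, was found for 2 of the 39 in Akita mice, Stat2 at -0.42 and Tap2 at -0.28, and for 2 in WT mice, Tap2 at -0.39 and Ifi27 at -0.42. Tap2 was 11.9, 14.9, 10.7, 15.9 and 13.8 CPM on water and 11.1, 12.6, 8.54, 9.44 and 9.73 CPM on MitoQ in WT mice, and the groups overlapped. For Ly6e the 95% interval was -0.34 to 0.23 in Akita and -0.55 to 0.54 in WT mice. The difference of the MitoQ effect between genotypes was called for none of the 39 genes by edgeR or DESeq2, none had an unadjusted p under 0.05, and the background was 0% of 18225 genes. MitoGamide and MitoQ were not compared with each other, since each had its own vehicle and the dose of MitoQ is not given.

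Vehicles were compared last, and the ethanol libraries in these comparisons are those through which the genes were chosen. In Akita mice, 4 of the 39 genes were higher on ethanol than on water and none was lower, where 12.7% of 17928 genes were called and 3.66% were higher. H2-Ab1 was higher at 0.68 (SE 0.16, adjusted p = 0.0330), H2-Eb1 at 0.54 (SE 0.15, adjusted p = 0.0402), Cd74 at 0.58 (SE 0.17, adjusted p = 0.0472) and Tapbp at 0.35 (SE 0.10, adjusted p = 0.0440). H2-Ab1 was 24.96, 20.7, 18.1, 19.3 and 15.8 CPM on water and 28.3, 32.6, 33.3, 23.6 and 43.1 CPM on ethanol, and 1 mouse on water reached the ethanol range. Tapbp was 54.6, 45.6, 41.5, 50.5 and 49.8 CPM on water and 60.0, 65.1, 67.1, 56.4 and 62.7 CPM on ethanol, with no overlap.

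DESeq2 called 6 of the 39 genes, beside 23.8% of all genes, with H2-Aa at 0.61 (adjusted p = 0.0232) and H2-D1 at 0.41 (adjusted p = 0.0423) added, and the fit of all 40 libraries, which called 14.7% of all genes, added H2-Aa at 0.58 (adjusted p = 0.0438). By edgeR none of the 4 calls held without the libraries that stood apart or with the ribosomal protein level as a covariate. H2-Ab1 was 0.63 (adjusted p = 0.142) without those libraries and 0.59 (adjusted p = 0.239) with the covariate. The count called among the 39 was 0 without any one of replicates 1, 2, 3 and 5 of Akita on ethanol or 2, 3 and 5 of Akita on water. In those fits only 0.00552% to 0.732% of all genes were called. The count was 3 without replicate 4 of Akita on ethanol, where 6.59% of all genes were called. It was 8 and 12 without replicates 1 and 4 of Akita on water, where 36.2% and 34.5% of all genes were called. The vehicles belong to separate arms whose ribosomal protein levels differed, from 2394 to 8735 CPM in Akita mice on water and from 7714 to 8859 CPM on ethanol, so vehicle and arm cannot be told apart.

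In WT mice none of the 39 genes was called for ethanol against water by edgeR, where 0% of 18092 genes were, 6 of the 39 had an unadjusted p under 0.05, beside 27.4% of all genes, and DESeq2 called none of the 39, beside 4.01% of all genes. H2-Aa had the smallest p, with 0.52 (SE 0.19, adjusted p = 0.150), and it was called without replicate 5 of WT on water at 0.61 (adjusted p = 0.0371), where 28.6% of all genes were called. Ly6e was higher by 0.40 with a 95% interval of -0.00215 to 0.81, a difference that did not pass the test.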

How the data were processed

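RNA-seq of 40 renal cortex samples was analysed from the deposited table of estimated counts per gene, given as whole numbers. Per the labels, the submitters' processing notes and the study's methods, the authors depleted ribosomal RNA, made directional libraries, mapped single reads to mouse transcripts of GRCm38 with kallisto 0.46.1, which divides reads among similar transcripts, and worked in R 4.0.2. No other column of per-sample values was present. Members and lists were chosen with earlier results of these data known. Genes were found by symbol, and positions come from GENCODE M21.

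Counts were tested with edgeR 4.0.16 (R 4.3.3, TMM scaling, quasi-likelihood F test), keeping a gene where its counts averaged 10 or more in a comparison and calling an adjusted p under 0.05. Pairs of groups were fitted on their own 10 libraries, the genotype over 30 libraries with treatment as a term, and interactions on the libraries concerned. Libraries held 9106654 to 24321424 counts, and intervals are 95% from the standard error. CPM were scaled over all 40 libraries. All 39 genes are accounted for. Full values are given for members called in any comparison, for Ly6e and for the member of each class with the highest mean count, and for the 10 called genes of the other pathway lists with the smallest p over the 30 libraries. Called cell type markers and the genes said to be named after their values were seen stand outside this rule. Alternatives were DESeq2 1.42.0, RLE scaling, no filter, the replicate number as a block, all 40 libraries in one fit and each library left out. Leaving out the 5 libraries that stood apart and a ribosomal protein covariate were chosen after seeing the data. Every pair of replicates differed by more than sampling noise. Scripts were tested on simulated data. Promoters come from RefSeq and were searched for the letters given. A gene of the list of receptors and signal transducers and another motif that was searched are not reported here.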

Additional observations from a re-analysis of the deposited data

Results flagged for a closer look

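Values that lay far from the 4 other mice of their group, by the gap to the nearest value over the whole range (critical value of Dixon for 5 samples), were sought in 10 genes and 8 groups. Of 80 groups of values, 7 met the criterion, where chance gives about 4. Ly6c1 was 69.2 CPM in replicate 5 of Akita on MitoGamide, where the others ran from 28.8 to 32.8 CPM, and 37.3 CPM in replicate 5 of WT on MitoGamide, where they ran from 19.0 to 21.6 CPM. H2-Eb1 was 60.0 CPM in replicate 2 of WT on ethanol against 35.5 to 42.3 CPM, and 24.1 CPM in replicate 3 of WT on water against 33.6 to 36.2 CPM. H2-Aa was 61.2 CPM in replicate 5 of WT on MitoGamide against 33.5 to 41.5 CPM. Ciita was 2.62 CPM in replicate 5 of Akita on MitoGamide against 5.69 to 6.89 CPM, and 7.87 CPM in replicate 2 of Akita on MitoQ against 6.00 to 6.36 CPM. Replicate 5 of Akita on MitoGamide and replicate 3 of WT on water were among the 5 libraries that stood apart.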

How the results depend on the processing

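The calls over 30 libraries ran from 7 to 9 of the 39 genes when each library was left out, beside 11.6% to 14.8% of all genes, and Ly6e, Ly6a, Ddx58, Cd74, H2-Ab1 and Ciita were called in 37 of 37 alternatives. H2-Eb1 was called in 35 and Ly6c1 in 27 (both lost with no filter on low counts), with adjusted p of Ly6c1 from 0.0112 to 0.0844, and no called gene changed direction. The ribosomal protein covariate gave 10, adding H2-Aa and Ifit2. On water the 1 call became 4 with DESeq2, 5 with all 40 libraries in one fit, 8 with the ribosomal protein covariate and 0 without the libraries that stood apart, and 0 to 1 when each library was left out (0.177% to 0.518% of all genes), 0 without replicate 5 of Akita. The share of all genes called on water moved as well, from 0.552% to 1.94%, 3.08%, 3.75% and 0.0437% in that order of settings. On MitoQ the 1 call became 2 without the libraries that stood apart and 5 with the covariate (1.47% and 3.58% of all genes), and 1 to 2 when each was left out (0.193% to 1.47% of all genes), 2 without replicate 3 of WT. On MitoGamide the 2 calls became 4 with DESeq2 and with all 40 libraries (18.5% and 11.3% of all genes). They ran from 2 to 3 when each was left out (7.44% to 16.9% of all genes), 3 without replicate 5 of Akita or replicate 5 of WT. On ethanol the 4 became 2 with all 40 libraries (4.75% of all genes) and 2 to 6 when each was left out (12.2% to 15.8% of all genes), the lowest without replicate 1 or 2 of Akita or replicate 5 of WT. MitoGamide in Akita mice gave 1 call without the libraries that stood apart, and 0 to 1 when each was left out (0% to 4.67% of all genes), 1 without replicate 5 of Akita on MitoGamide. Ethanol against water in WT mice gave 0 to 1 (0% to 28.6% of all genes), 1 without replicate 5 of WT on water. In Akita mice the 4 calls for ethanol against water became 6 with DESeq2 (23.8% of all genes) and 5 with all 40 libraries. They became 0 with the replicate block, without the libraries that stood apart and with the covariate. When each library was left out they ran from 0 to 12, the highest without replicate 4 of Akita on water. The share of all genes called ran from 0.00552% to 36.2% in those fits. MitoGamide in WT mice, MitoQ in both genotypes and the interactions gave 0 calls in each alternative run. The causes were not tested.

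Replicate numbers did not pair the mice: correlations of same-numbered deviations ran from -0.504 to 0.708 over 10 comparisons, and in none were all 5 over 0.1. The replicate block gave 0 calls for ethanol against water in Akita mice, as above. It added Ifit2 over 30 libraries (0.35, adjusted p = 0.0403), Ly6c1 in Akita against WT on MitoGamide (0.68, adjusted p = 0.00371) and, on ethanol, H2-Aa (-0.39) and H2-Eb1 (-0.35). Isg15, Oas1a, Ifit3b and Rtp4 had as few as 6 to 8 counts in a library, so differences of these genes are the least precise.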
